A study of Homo sapiens with 9 samples.

Results

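The transcripts examined here are those of 10 genes of the BCL2 family, chosen by name as MCL1, BCL2L1, BCL2L2, BAX, BAK1, BID, BIK, BCL2L11, BBC3 and PMAIP1 and found as 10 of the 60564 genes of the deposited expression table. They were measured by RNA-seq in BxPC3, an established human cell line from a pancreatic ductal adenocarcinoma. The 3 groups of 3 libraries came from cells given vehicle, cells transfected with an siRNA (a short RNA duplex that silences its target) for STAT3, and cells given WB436B at 0.1 µM, a code-named compound. The labels call the libraries of a group biological replicates without naming separate cultures, and p-values here speak only of the spread among these libraries, which may be technical. All groups share one parental line, and the labels name no transfected control, so the effects of transfection and of STAT3 loss cannot be told apart. The sources used here do not give the time under treatment.

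The BCL2 family decides whether the outer membrane of the mitochondrion stays intact. Pro-survival members such as MCL1 hold the effectors BAX and BAK1 in check, BH3-only proteins displace or directly engage them, and freed effectors form pores that release cytochrome c and start the caspase cascade. Members bind one another through the BH3 stretch, a short helix that fits a groove on the pro-survival proteins. STAT3 is known as an activator of several pro-survival genes in carcinoma, MCL1 and BCL2L1 among them.

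The BH3 stretch is what the 10 members share at sequence level, so the bases that encode its core are shown for each, taken from the GENCODE 29 reference transcripts. Each run covers 9 codons (27 bases) from a leucine or methionine codon onward, and the capitals mark the 2 codons of the glycine or alanine and the aspartate that follow 3 free positions. The search also required a codon for asparagine, aspartate, glutamate or glutamine at the end of the run. It found 1 such stretch in the coding sequence of the 1 transcript chosen for each of the 10 members.
MCL1: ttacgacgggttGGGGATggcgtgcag
BCL2L1: ctgagggaggcaGGCGACgagtttgaa
BCL2L2: atgcgggcagctGGAGATgagttcgag
BAX: ctcaagcgcatcGGGGACgaactggac
BAK1: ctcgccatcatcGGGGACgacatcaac
BID: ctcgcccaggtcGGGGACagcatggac
BIK: ctggcctgcatcGGGGACgagatggac
BCL2L11: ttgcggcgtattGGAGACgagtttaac
BBC3: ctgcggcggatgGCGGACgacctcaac
PMAIP1: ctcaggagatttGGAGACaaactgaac
In BBC3 the first capital codon is an alanine codon, while the other 9 members have a glycine codon there. The first codon of the run is a methionine codon in BCL2L2 and a leucine codon in the other 9.

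Values are FPKM, fragment counts scaled to transcript length and library total. Tests ran on log2(FPKM + 1) for the 12747 genes that reached 1 FPKM in 3 or more libraries, a filter that all 10 members passed, BBC3 and BCL2L11 through vehicle and siRNA libraries alone. One limma fit covered the 9 libraries, and a gene counted as called when its p, adjusted by Benjamini-Hochberg over these genes, was under 0.05. Estimated depth was 48200000 fragments in vehicle replicate 1 and 15100000 to 20800000 in the other 8 libraries. STAT3, the target of the siRNA, averaged 15.8 ± 0.623 FPKM under vehicle, 2.86 ± 0.242 FPKM after the siRNA and 10.7 ± 0.230 FPKM under WB436B (SD, n = 3). All 7 ductal epithelial markers were expressed, with a summed level of 1101 to 1274 FPKM over the libraries. That sum does not show changes of single markers. After the siRNA 5 of them were called higher and 2 lower, beside 29.8% and 22.3% of all tested genes. Under WB436B 3 were called higher and 2 lower, beside 24.9% and 41.1%. The fibroblast, leukocyte, endothelial and acinar lists summed to at most 8.41 FPKM in any library, with KDR, CELA3A and PNLIP at 0 in all 9. After the siRNA 52.1% of all tested genes were called, and under WB436B 65.9%. Of the WB436B calls 37.7% were upward, against 53% with quantile normalization, which moved the median of all genes by 0.159 on the log2 scale. In bulk RNA, fewer cells of a kind and less RNA per cell cannot be told apart.

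MCL1 was the most abundant member in every group, and it fell after both treatments while BAK1 fell with it. After STAT3 siRNA 2 of the 10 members were called, both lower (MCL1 and BAK1) and 0 higher, against 52.1% of all tested genes called in either direction, 22.3% called lower and 29.8% called higher. The libraries of 4 members did not overlap those of vehicle, beside 60.5% of all genes. Under WB436B 5 of the 10 were called, against 65.9% of all genes. MCL1, BAK1 and BBC3 were lower there (41.1% of all genes were), and BAX and PMAIP1 were higher (24.9% of all genes were). The libraries of 8 members did not overlap those of vehicle, beside 70.1% of all genes. These shares of members are near or below those of all genes, so no excess of change in the family was seen. The median log2 fold change of the 10 members was -0.13 after the siRNA and -0.18 under WB436B, beside 0.06 and -0.13 for all tested genes. With median-of-ratios scaling or quantile normalization the count after the siRNA was 4, all lower, since BID and BIK then passed as well. Of the 12747 tested genes these settings called 6367 and 6738, with 47.7% and 54.3% of the calls upward. Without rescaling these were 6638 calls and 57.2%.

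**Figure D1:**
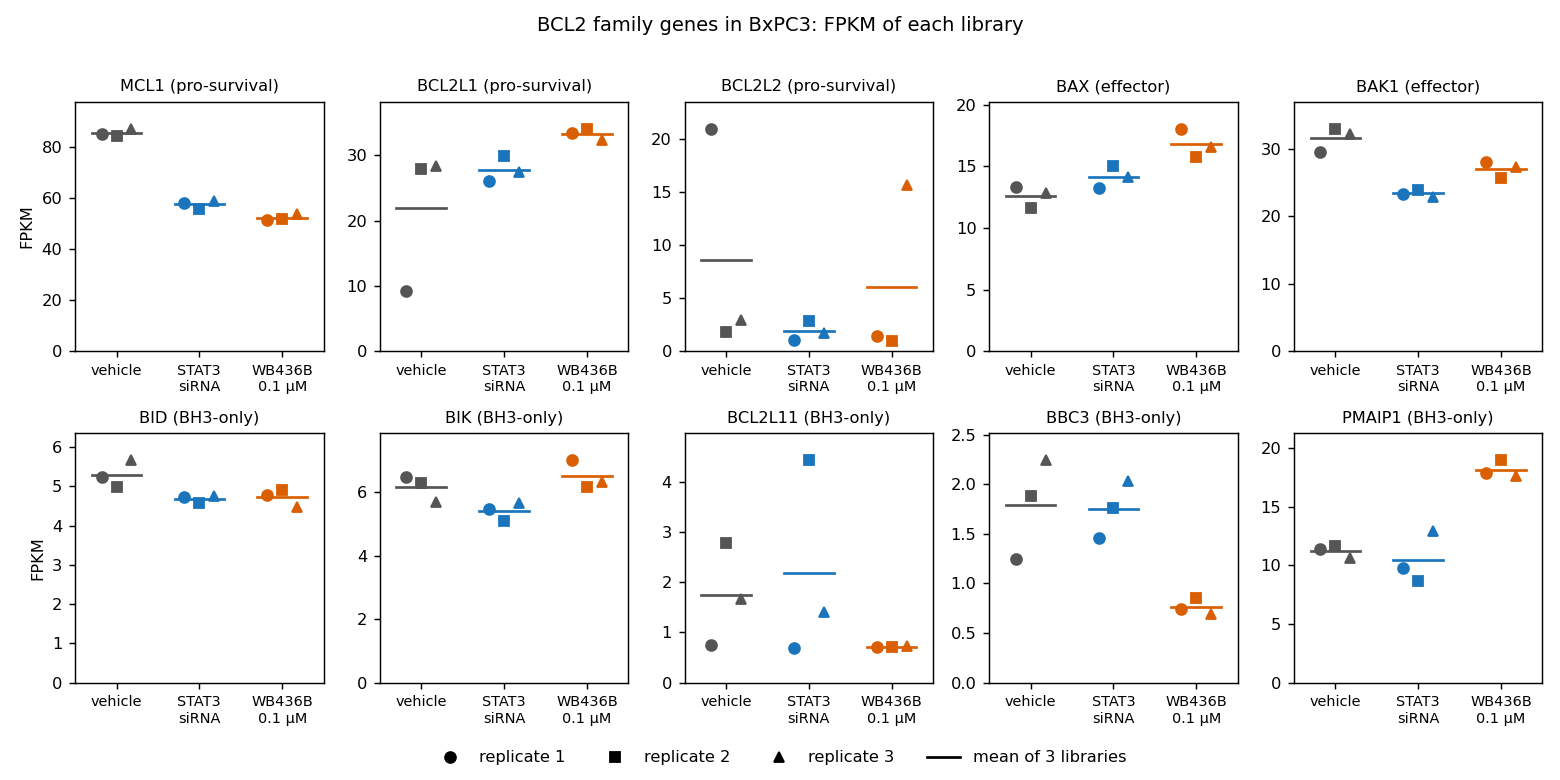
FPKM of the 10 BCL2 family genes in each library (vertical axis, from 0, with its own scale for each gene), by group on the horizontal axis, with the symbol showing the replicate and the line the mean of 3 libraries. MCL1 lies at 84.4 to 87.2 FPKM under vehicle and at or below 58.8 FPKM in both treated groups, PMAIP1 lies highest under WB436B, and single libraries stand apart for BCL2L1, BCL2L2 and BCL2L11.

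MCL1 encodes a short-lived pro-survival protein that binds BAK1 and several BH3-only proteins. Its transcript measured 85.1, 84.4 and 87.2 FPKM under vehicle, at 58.2, 55.9 and 58.8 FPKM after the siRNA, and at 51.5, 51.9 and 53.6 FPKM under WB436B. The 3 groups did not overlap, and the spread within each was small (coefficients of variation of 1.68%, 2.71% and 2.14%). MCL1 was at 67.4% of the vehicle mean after the siRNA (log2 fold change -0.56, SE 0.0373, limma adjusted p = 7.7e-06) and at 61.2% under WB436B (-0.70, adjusted p = 9.4e-07). Both decreases kept their direction and their call in all 22 alternatives, over which they ranged from -0.64 to -0.51 and from -0.85 to -0.63. An exact permutation test of 3 against 3 libraries gave p = 0.1 for each, the smallest this design allows. Between the treatments, MCL1 was called lower under WB436B than after the siRNA (-0.14, adjusted p = 0.011). That call ended with median-of-ratios scaling (-0.00, adjusted p = 0.93) and with equal totals (-0.12, adjusted p = 0.057), and the value was -0.31 with quantile normalization.

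MCL1 also stood high among all transcripts, above 97.5% of tested genes under vehicle and above 94.9% under WB436B. The 3 genes with the pattern most like that of MCL1 over the 9 libraries were EDEM1, LMO7 and RSPH3. Their root mean square differences from MCL1, after each gene was centred on its own mean log2 value, were 0.0355, 0.0380 and 0.0400. EDEM1 averaged 22.5, 15.2 and 13.1 FPKM under vehicle, siRNA and WB436B, LMO7 11.3, 7.36 and 6.69 FPKM, and RSPH3 4.48, 2.87 and 2.48 FPKM.

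BCL2L1 encodes BCL-XL, the other main pro-survival protein of epithelial cancers. It stood at 9.27, 27.9 and 28.4 FPKM under vehicle, at 26.0, 29.9 and 27.5 FPKM after the siRNA, and at 33.4, 34.1 and 32.3 FPKM under WB436B. Vehicle replicate 1, also the deepest library, lay far below the other 2 vehicle libraries, and a ratio of highest to lowest as large as its 3.06 was found in 2.38% of tested genes in that group. The WB436B libraries all lay above those of both other groups.

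For BCL2L1 neither treatment was called, with log2 fold changes of 0.48 after the siRNA (95% confidence interval -0.32 to 1.29, limma adjusted p = 0.28) and 0.74 under WB436B (-0.07 to 1.54, adjusted p = 0.096). Without vehicle replicate 1 the siRNA value was -0.02 (adjusted p = 0.83), and the WB436B value was 0.23 and was called (adjusted p = 0.014). It was also called without vehicle replicate 3 (0.99, adjusted p = 0.045) and, at an adjusted p of 0.05 after rounding, without vehicle replicate 2 (0.98). Against the siRNA group, BCL2L1 under WB436B was 0.25 higher on the log2 scale, which was not called with all libraries (adjusted p = 0.55) but was called in a fit of only these 2 groups (adjusted p = 0.0098) and without vehicle replicate 1 (adjusted p = 0.0056). The reference gives BCL2L1 9 transcripts, and 43.0% of its exon bases lie opposite exons of the antisense gene ABALON, which was listed at 2.67 to 5.05 FPKM. The part of these overlaps and of depth in the low value of vehicle replicate 1 was not tested.

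BCL2L2 encodes the pro-survival protein BCL-w. Its values were 21.0, 1.86 and 2.92 FPKM under vehicle, 1.07, 2.84 and 1.71 FPKM after the siRNA, and 1.42, 0.957 and 15.7 FPKM under WB436B. A single library in the vehicle group and another in the WB436B group stood far above the others of their group, and the groups overlapped in every comparison. The highest-to-lowest ratio of 11.3 under vehicle was reached by 0.549% of tested genes, and that of 16.4 under WB436B by 0.879%. Neither treatment was called, with log2 fold changes of -1.17 after the siRNA (95% confidence interval -3.34 to 1.00) and -0.55 under WB436B (-2.72 to 1.63). With 1 library left out the siRNA value ranged from -1.74 to -0.27, nearest to 0 without vehicle replicate 1. The readthrough gene BCL2L2-PABPN1 covers 19.4% of the exon bases of BCL2L2 on the same strand, and its part in these values was not tested. It was listed at 5.40, 5.33 and 6.09 FPKM under vehicle, at 5.61, 4.09 and 5.24 FPKM after the siRNA, and at 2.46, 5.66 and 1.91 FPKM under WB436B.

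**Figure D2:**
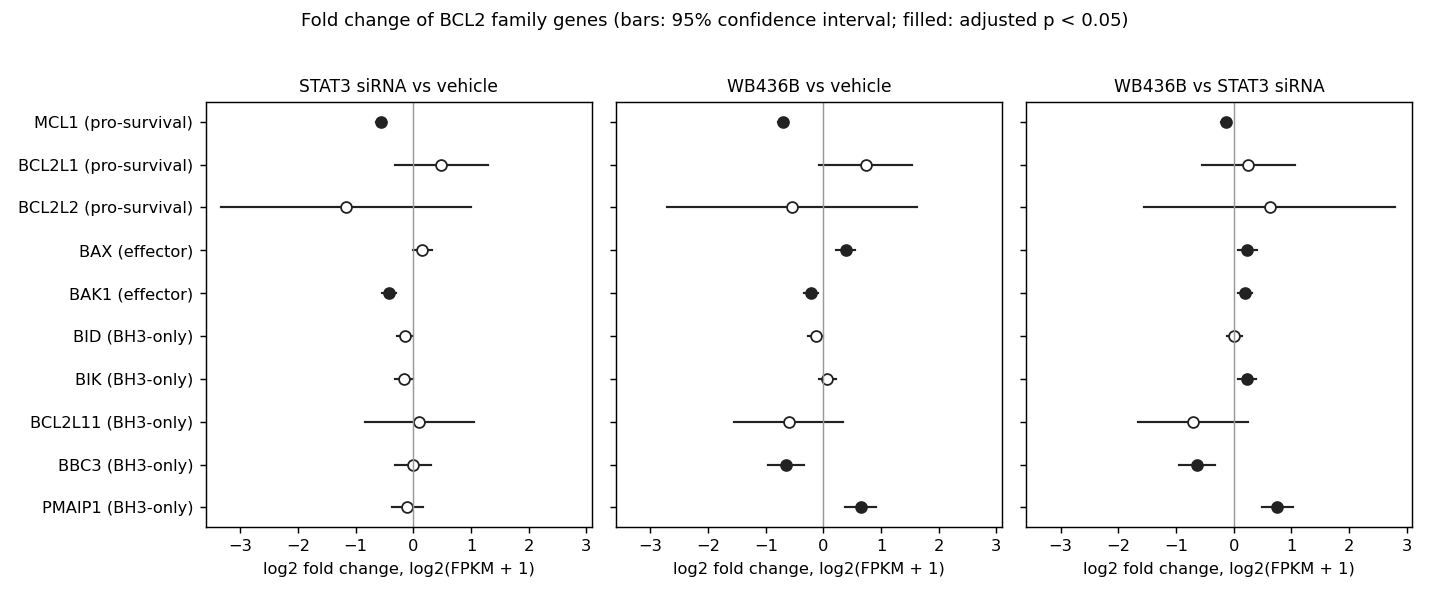
Log2 fold change of each of the 10 genes on the log2(FPKM + 1) scale (horizontal axis) in the 3 comparisons, with bars for the 95% confidence interval and filled points for an adjusted p below 0.05. MCL1 and BAK1 lie below 0 in both comparisons with vehicle, and the widest intervals are those of BCL2L2.

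The effectors took different directions. BAK1, which sits in the mitochondrial membrane, stood at 29.6, 33.0 and 32.2 FPKM under vehicle, at 23.4, 23.9 and 22.9 FPKM after the siRNA, and at 28.1, 25.7 and 27.3 FPKM under WB436B. Both treated groups lay below all vehicle libraries. BAK1 fell by 0.42 on the log2 scale after the siRNA (SE 0.0533, limma adjusted p = 0.00028) and by 0.22 under WB436B (adjusted p = 0.0066), calls that held in all 22 alternatives, the second reaching -0.34 with quantile normalization. It was higher under WB436B than after the siRNA (0.20, adjusted p = 0.010), a difference of 0.08 (adjusted p = 0.23) with quantile normalization and 0.33 with median-of-ratios scaling. The pseudogene BAK1P1, a near copy whose fragments may be shared with BAK1, was listed at 0.181 to 0.907 FPKM.

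BAX, the effector that moves from the cytosol to the mitochondrion, stood at 13.3, 11.6 and 12.8 FPKM under vehicle, at 13.2, 15.0 and 14.1 FPKM after the siRNA, and at 18.1, 15.8 and 16.6 FPKM under WB436B. The siRNA and vehicle libraries overlapped, and all WB436B libraries were above both. BAX rose under WB436B to 133% of the vehicle mean (log2 fold change 0.39, SE 0.0716, limma adjusted p = 0.0014), in all 22 alternatives. After the siRNA the value was 0.15 (95% confidence interval -0.01 to 0.32, adjusted p = 0.10). The difference between the treatments was 0.24 (adjusted p = 0.019), or 0.36 with median-of-ratios scaling. Leaving out siRNA replicate 1 (0.19, adjusted p = 0.067) or WB436B replicate 1 (0.18, adjusted p = 0.065) ended that call.

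The BH3-only member with the largest increase was PMAIP1, also called NOXA, which binds MCL1 and favours its degradation. It stood at 11.4, 11.7 and 10.6 FPKM under vehicle and at 17.8, 19.0 and 17.6 FPKM under WB436B. All WB436B libraries lay above all libraries of both other groups. The rise to 162% of the vehicle mean (log2 fold change 0.65, SE 0.118, limma adjusted p = 0.0013) held in all 22 alternatives, as did the difference of 0.75 from the siRNA group (adjusted p = 0.00055). After the siRNA PMAIP1 was at 9.79, 8.71 and 12.9 FPKM, on both sides of the vehicle values (log2 fold change -0.11, adjusted p = 0.48). That value was called lower without siRNA replicate 3 (-0.25, adjusted p = 0.020).

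BBC3, or PUMA, a BH3-only gene whose product engages all pro-survival members, was a weak transcript. Its values were 1.24, 1.89 and 2.24 FPKM under vehicle, 1.45, 1.76 and 2.03 FPKM after the siRNA, and 0.738, 0.857 and 0.694 FPKM under WB436B. The siRNA and vehicle libraries overlapped, whereas the WB436B libraries lay below all others. BBC3 fell to 42.6% of the vehicle mean under WB436B (log2 fold change -0.65, SE 0.136, limma adjusted p = 0.0029), and the value after the siRNA was -0.01 (adjusted p = 0.96). It was also lower under WB436B than after the siRNA (-0.64, adjusted p = 0.0033). BBC3 passed the filter through vehicle and siRNA libraries alone, so its selection for testing was not independent of these decreases. Quantile normalization ended both calls (-0.28, adjusted p = 0.11, and -0.26, adjusted p = 0.14), and a pseudocount of 0.1 gave -1.10 and -1.09. Fewer genes reached 1 FPKM in the WB436B libraries (10846 to 10903) than in the others (12231 to 12329). The median of all tested genes under WB436B was -0.13, and 0.02 with a filter of 5 FPKM. Whether the decrease of BBC3 is part of a wider one among weak transcripts was not tested.

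BCL2L11, or BIM, the BH3-only protein known for binding every pro-survival member, varied too much to be compared. It stood at 0.754, 2.78 and 1.68 FPKM under vehicle, at 0.684, 4.43 and 1.41 FPKM after the siRNA, and at 0.716, 0.710 and 0.728 FPKM under WB436B. The WB436B libraries were alike and all lay below the vehicle libraries, but 1 siRNA library lay below them too. Neither treatment was called, with log2 fold changes of 0.10 after the siRNA (95% confidence interval -0.84 to 1.05) and -0.60 under WB436B (-1.55 to 0.35). The latter was -0.89 without vehicle replicate 1 and -0.33 without vehicle replicate 2. The difference between the treatments (-0.71, limma adjusted p = 0.17) was called without siRNA replicate 1 (-1.07, adjusted p = 0.046). That fit left out the lowest siRNA library and kept the one at 4.43 FPKM. BCL2L11 passed the filter through vehicle and siRNA libraries alone, so its selection for testing was not independent of lower values under WB436B. BCL2L11 has 25 annotated transcripts, the most of the 10 members, and 10.9% of its exon bases lie opposite exons of MIR4435-2HG.

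BID links death receptors to mitochondria once caspase-8 has cleaved it, and BIK acts from the endoplasmic reticulum. BID stood at 5.23, 4.99 and 5.67 FPKM under vehicle, at 4.73, 4.58 and 4.75 FPKM after the siRNA, and at 4.79, 4.91 and 4.46 FPKM under WB436B. Both treated groups lay below vehicle, by values of -0.15 and -0.14 on the log2 scale that missed the threshold (limma adjusted p = 0.059 and 0.060). BIK stood at 6.48, 6.29 and 5.68 FPKM under vehicle, at 5.46, 5.08 and 5.66 FPKM after the siRNA, and at 7.01, 6.17 and 6.31 FPKM under WB436B. Neither treatment was called for BIK (-0.16, adjusted p = 0.079, and 0.07, adjusted p = 0.40). With median-of-ratios scaling the siRNA values of BID (-0.21, adjusted p = 0.015) and BIK (-0.23, adjusted p = 0.027) were called.

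BIK was higher under WB436B than after the siRNA (0.23, limma adjusted p = 0.016), with no overlap of the libraries, and the value was 0.38 with quantile normalization. The call was lost without siRNA replicate 2 (0.19, adjusted p = 0.056) or WB436B replicate 1 (0.18, adjusted p = 0.058). BIK has a single annotated transcript of 953 bases, so its fragments can be estimated, at 298 in vehicle replicate 1 and 82 to 139 in the other 8 libraries. BID did not pass in that comparison (0.01, adjusted p = 0.91), except with quantile normalization (0.21, adjusted p = 0.021). Between the treatments 6 of the 10 members were called, 4 higher under WB436B (BAX, BAK1, BIK and PMAIP1) and 2 lower (MCL1 and BBC3), against 64.1% of all tested genes. Of all genes 20% were higher there and 44.1% lower. The libraries of 7 members did not overlap, beside 70.2% of all genes, and the members' median was 0.21 beside -0.18. Upward calls made up 31.2% of all calls in this comparison, 42.2% after median-of-ratios scaling and 50% after quantile normalization.

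**Figure D3:**
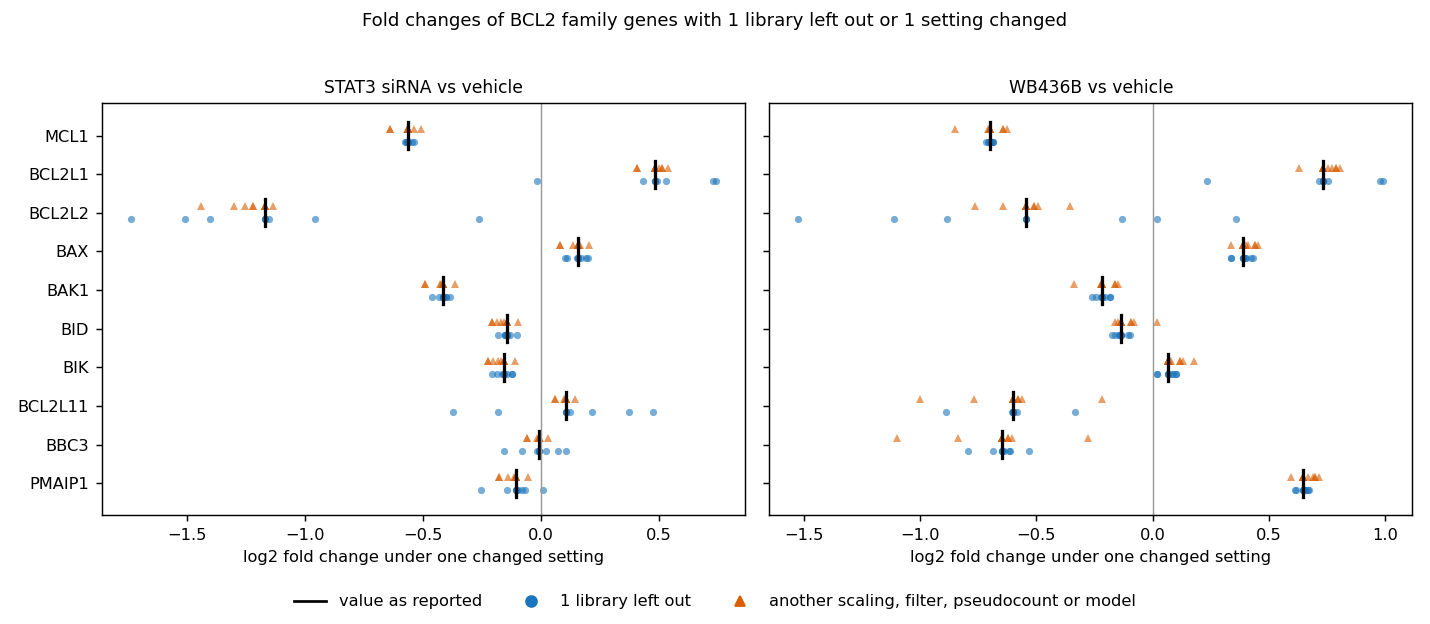
Log2 fold change (horizontal axis) of each of the 10 genes against vehicle, with the reported value as a black line, circles for fits that leave out 1 library and triangles for another scaling, filter, pseudocount or model. MCL1 and BAK1 stay below 0 in both panels, PMAIP1 and BAX stay above 0 under WB436B, and the circles of BCL2L1, BCL2L2 and BCL2L11 spread widest.

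In order of the vehicle means, MCL1 came first at 85.6 FPKM, followed by BAK1 at 31.6, BCL2L1 at 21.8, BAX at 12.6, PMAIP1 at 11.2, BCL2L2 at 8.58, BIK at 6.15, BID at 5.30, BBC3 at 1.79 and BCL2L11 at 1.74 FPKM. Neighbours in that order whose vehicle libraries overlapped were BCL2L1 and BAX, BAX and PMAIP1, PMAIP1 and BCL2L2, BCL2L2 and BIK, and BBC3 and BCL2L11. The place of BCL2L2 rests on vehicle replicate 1, which stood apart. Under WB436B PMAIP1, at 18.1 ± 0.739 FPKM, and BAX, at 16.8 ± 1.17 FPKM (SD, n = 3), overlapped as well.

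Ratios of members within a library do not depend on any factor that multiplies a whole library. Quantile normalization is not such a factor and can change them. The FPKM ratio of MCL1 to PMAIP1, chosen after the values were seen, was 7.48, 7.23 and 8.22 under vehicle, 5.95, 6.42 and 4.55 after the siRNA, and 2.89, 2.73 and 3.05 under WB436B. The 3 groups did not overlap, and the WB436B ratios were the lowest. The ratio of BAX to BAK1 was 0.449, 0.353 and 0.399 under vehicle, 0.565, 0.628 and 0.616 after the siRNA, and 0.642, 0.613 and 0.607 under WB436B. Both treated groups lay above vehicle and overlapped each other.

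MCL1 made up 73.6% to 74.0% of the summed FPKM of MCL1, BCL2L1 and BCL2L2 under vehicle, 63.0% to 68.3% after the siRNA and 52.8% to 59.7% under WB436B. The vehicle shares were nearly equal although BCL2L1 was low and BCL2L2 high in vehicle replicate 1, and the lowest WB436B share was that of replicate 3, where BCL2L2 was high. Since MCL1 and PMAIP1 were each compared above, these ratios add no separate evidence.

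**Figure D4:**
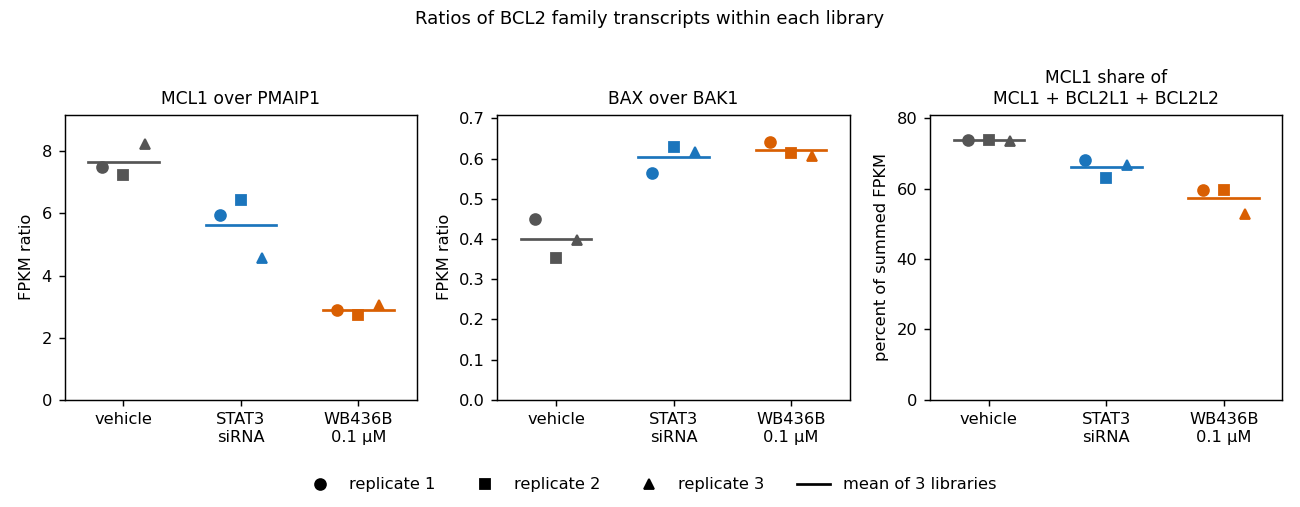
Ratios of transcripts within each library (vertical axes from 0), by group, with the symbol showing the replicate and the line the mean of 3 libraries. The ratio of MCL1 to PMAIP1 is 7.23 to 8.22 under vehicle and 2.73 to 3.05 under WB436B, and the ratio of BAX to BAK1 is higher in both treated groups than under vehicle.

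Of 13 further genes of the BCL2 family or named after it, 7 were expressed enough to be tested. After the siRNA 3 of these rose and 1 fell, beside 29.8% and 22.3% of all tested genes. Under WB436B 2 rose and 2 fell, beside 24.9% and 41.1% of all tested genes. The medians were 0.01 in both comparisons, beside 0.06 and -0.13 for all genes. BMF, a BH3-only gene, averaged 2.47 FPKM under vehicle and took opposite directions, with means of 3.97 FPKM after the siRNA (log2 fold change 0.52, limma adjusted p = 0.00077) and 0.268 FPKM under WB436B (-1.45, adjusted p = 1.1e-06). It passed the filter through vehicle and siRNA libraries alone, so its selection for testing was not independent of the WB436B decrease. BNIP3L, a mitophagy receptor, fell by 0.98 and 1.53 on the log2 scale, and BCL2L12 rose by 0.22 and 0.62, the first not called with median-of-ratios scaling (0.15, adjusted p = 0.12). BCL2 itself, the founding pro-survival gene, was weak. Its vehicle libraries lay at 0.545 to 0.682 FPKM, the siRNA libraries at 1.01 to 1.24 FPKM and the WB436B libraries at 1.04 to 1.49 FPKM. It rose in both comparisons (0.37, adjusted p = 0.0070, and 0.48, adjusted p = 0.0012), the second at 0.84 with quantile normalization. BCL2 passed the filter through treated libraries alone, so its selection for testing was not independent of these increases. BCL2A1, a pro-survival gene driven by NF-kB, stayed below the filter, at 0.532 to 0.598 FPKM in the vehicle libraries and 0.0588 to 0.311 FPKM in the siRNA libraries, with 0.550 to 0.760 FPKM under WB436B.

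Downstream of the mitochondrion, 17 genes of the apoptosome, the caspases and their inhibitors were tested. After the siRNA 6 rose and 3 fell, beside 29.8% and 22.3% of all tested genes. Under WB436B 3 rose and 4 fell, beside 24.9% and 41.1% of all tested genes. The median log2 fold changes of the 17 genes were 0.12 and -0.10, beside 0.06 and -0.13 for all genes. After quantile normalization the second was 0.02, with 6 higher and 4 lower, beside 0.03 for all genes. That setting called 7793 of the 12747 tested genes under WB436B, 53% of them upward. CYCS, which encodes cytochrome c, rose by 0.55 and 0.64, and DFFA, the inhibitor of the caspase-activated nuclease, by 0.49 and 0.57. BIRC3, an inhibitor of apoptosis that NF-kB induces, fell by 1.31 after the siRNA, and the initiator caspase gene CASP9 fell by 0.55 under WB436B, or by 0.25 with quantile normalization. CASP6 took opposite directions, with 0.28 after the siRNA and -0.44 under WB436B, both called, the second at -0.24 with quantile normalization.

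Upstream, 11 genes of the death receptor pathway, which can lead to BID cleavage, were tested. After the siRNA 5 fell and none rose, and under WB436B 5 fell and 1 rose (medians -0.24 and -0.31, beside 0.06 and -0.13 for all genes). Of all tested genes 22.3% fell and 29.8% rose after the siRNA, and 41.1% fell and 24.9% rose under WB436B. The single increase was that of the receptor gene TNFRSF10A, by 0.23 (limma adjusted p = 0.047, or 0.14 with quantile normalization), which fell by 0.44 after the siRNA. TNFSF10, the death ligand TRAIL, averaged 32.3 FPKM under vehicle, 8.90 FPKM after the siRNA and 2.25 FPKM under WB436B, and its receptor gene TNFRSF10B fell by 0.91 and 0.14, the second not called with equal totals (-0.07) or median-of-ratios scaling (-0.08) and at -0.26 with quantile normalization. Of 11 genes of mitochondrial membrane channels, carriers and fission or fusion, 4 rose and 2 fell after the siRNA, and 3 rose and 2 fell under WB436B (medians 0.12 and 0.03), the latter becoming 3 and 0 with equal totals. VDAC1, a channel of the outer membrane, rose by 0.25 and 0.77, and the carrier gene SLC25A4 rose by 0.95 after the siRNA. Under WB436B SLC25A4 was at -0.02 (adjusted p = 0.88), and at 0.29 with quantile normalization, where it was called.

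Among 7 genes that act on the stability of MCL1 or BIM protein, 2 rose and 1 fell after the siRNA, and 3 rose and 2 fell under WB436B (medians 0.03 and 0.07). CDC20, an activator of the anaphase-promoting complex, rose by 1.35 under WB436B and fell by 0.16 after the siRNA, the latter not called with equal totals (-0.11, adjusted p = 0.083). The deubiquitinase genes USP9X and USP13, whose products stabilise MCL1, were at -0.42 and 0.41 under WB436B, both called, the latter at 0.71 with quantile normalization, and the ligase gene HUWE1 rose by 0.35 after the siRNA. Of 16 transcription factor genes known to act on members of the family, 4 rose and 6 fell after the siRNA, and 2 rose and 10 fell under WB436B (medians -0.08 and -0.56, beside 0.06 and -0.13 for all genes, of which 22.3% and 41.1% fell and 29.8% and 24.9% rose). This list includes STAT3 itself, the target of the siRNA. DDIT3, a stress factor, had a vehicle mean of 11.2 FPKM and a mean of 31.6 FPKM after the siRNA (log2 fold change 1.41, limma adjusted p = 8.6e-05). DDIT3 fell under WB436B, to a mean of 7.01 FPKM (-0.61, adjusted p = 0.0057). FOXO3, a known activator of BCL2L11 and BBC3, and its relative FOXO4 fell by 0.69 and 1.04 under WB436B, and JUN rose by 0.78. The value of FOXO4, which passed the filter without its WB436B libraries, was -0.66 with quantile normalization.

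**Figure D5:**
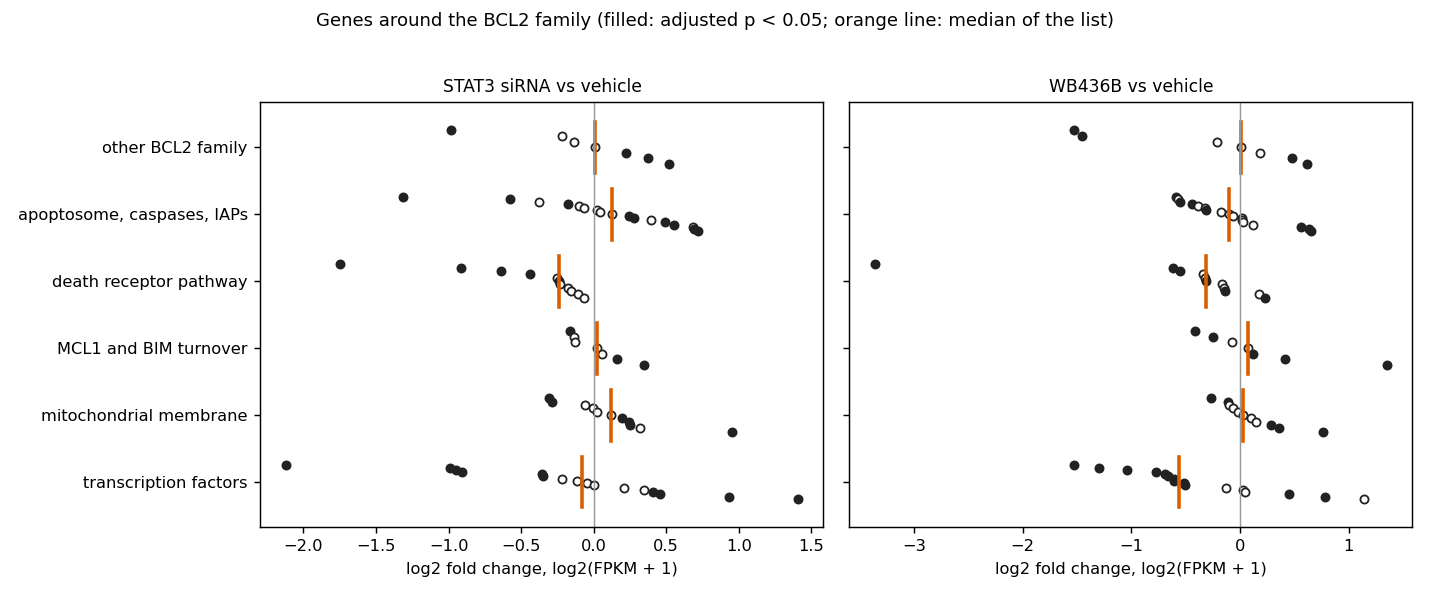
Log2 fold change against vehicle (horizontal axis) of the tested genes of 6 lists around the BCL2 family, 1 point per gene, filled where the adjusted p was below 0.05, with the median of each list as an orange line. The median of the transcription factors lies at -0.56 under WB436B, and the lowest point of the death receptor list is TNFSF10.

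Promoter windows from RefSeq (GRCh38.p14), 250 bases before to 50 after a start, were matched for 7 of the 10 members in 12 windows, which leaves MCL1, BCL2L2 and BIK. The 3 motifs searched were chosen after the values were seen and were sought on both strands. The motif of STAT factors, TTCNNNGAA, was in none of the 12 windows and in 7.66% of all 35116 windows, which says only that these letters are absent there. The E-box CACGTG was found in 7.26% of all windows and 4 times in that of BAX, a number reached by 5 of the 35116 windows, with 1 match in BBC3 and in 2 overlapping windows of BID. The 90 bases just before the annotated BAX gene hold 2 of the 4, shown in capitals because BAX rose under WB436B.
BAX, chr19:48954725-48954814, plus strand: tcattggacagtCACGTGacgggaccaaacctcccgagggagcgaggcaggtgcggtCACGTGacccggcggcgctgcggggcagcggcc
MYC, whose protein binds such E-boxes, was not called under WB436B (log2 fold change 1.15, SE 0.520, limma adjusted p = 0.082), nor after the siRNA (0.34, adjusted p = 0.61). Its libraries stood at 2.93, 4.30 and 13.9 FPKM under vehicle, at 10.5, 11.3 and 3.49 FPKM after the siRNA, and at 14.1, 13.1 and 14.8 FPKM under WB436B. One vehicle library of MYC lay far above the other vehicle libraries, and one siRNA library far below the others of its group.

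The letters TGACG, the half-site of cyclic AMP response elements that ATF and JUN factors bind, were in 24.6% of all windows. The windows of PMAIP1, BAX and BCL2L1 held 1 match each. The 90 bases before the PMAIP1 gene show its match on the opposite strand in capitals, given because PMAIP1 had the largest called increase of the 10 members.
PMAIP1, chr18:59899858-59899947, plus strand: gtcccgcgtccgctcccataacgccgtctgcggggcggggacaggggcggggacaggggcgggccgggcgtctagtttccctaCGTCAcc
ATF4, one of the factors of this class, was at 0.46 after the siRNA (limma adjusted p = 0.00018) and at -0.51 under WB436B (adjusted p = 5.1e-05). JUN, another of them, was at 0.005 after the siRNA (adjusted p = 0.94) and at 0.78 under WB436B (adjusted p = 1.6e-06). These matches are descriptions of sequence, and binding was not measured.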

How the data were processed

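The authors deposited one table of FPKM values for 60564 human Ensembl genes in 9 libraries. Bowtie 0.12.2 and mm8, a mouse build, appear in the submitters' processing notes, and since the identifiers are human the build is uncertain. For the FPKM program, annotation and strand setting nothing is given in the sources used here. FPKM divides by each library's total, and the rule that divides fragments among overlapping models is unknown. Genes reaching 1 FPKM in 3 or more libraries were kept (12747, 21.0%) and fitted as log2(FPKM + 1) with limma 3.58.1 in R 4.3.3 (mean-variance trend, 6 residual degrees of freedom, two-sided, Benjamini-Hochberg over all tested genes). The step was tested on simulated data. Fold changes on this scale understate weak genes. Depth was estimated from the steps of low FPKM values in genes with 1 transcript and is approximate. A total of 27 symbols turned into dates was restored from the identifiers, of which GENCODE 29 held 96.5%. That release supplied the transcripts, and exon overlap was computed for the 10 members and STAT3. The 10 members were named by symbol. The members, the 6 pathway lists and 5 marker lists were chosen with earlier results of these data known. The rule for named genes took the members, STAT3 and up to 4 genes of each list by smallest adjusted p in each comparison with vehicle. Some genes of these pathways are not reported here. It added the 3 genes most like each member that was called in both treatments with a log2 fold change of at least 0.5 in size in one, which was MCL1. TNFRSF10A under WB436B, MYC, ATF4, BCL2A1 and the genes overlapping or copying members were named after their values were seen. Alternatives covered pseudocounts, filters, scalings, the variance model, the groups fitted, a replicate block, a stricter threshold and leaving out each library. The lists were also refitted under 3 scalings, chosen after seeing the data.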

Additional observations from a re-analysis of the deposited data

How the results depend on the processing

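Each fold change of a member was recomputed under up to 22 alternatives (BID, BBC3, BCL2L2 and BCL2L11 had 21, since they failed the filter of 5 FPKM), giving 648 values. Of these 602 kept their direction and their side of the threshold, 14 lost the call, 17 gained it and 15 changed sign. No called member changed sign. The count of members called after the siRNA was 4 with median-of-ratios scaling, 4 with quantile normalization and 4 with the replicate block plus median-of-ratios scaling, against 2. Of all 12747 tested genes these settings called 6367, 6738 and 6017, against 6638. The count between the treatments was 2 at an adjusted p below 0.01, against 6, beside 6582 against 8175 of all tested genes. With the filter of 5 FPKM, which leaves 7042 genes, 4138, 4860 and 4629 genes were called after the siRNA, under WB436B and between the treatments, against 6638, 8402 and 8175.

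Sign changes outside left-out libraries were BBC3 after the siRNA with equal totals (0.027) and BID under WB436B with quantile normalization (0.021). With 1 library left out, the siRNA values ranged from -0.16 to 0.11 for BBC3, -0.018 to 0.74 for BCL2L1, -0.37 to 0.47 for BCL2L11 and -0.25 to 0.0058 for PMAIP1. BCL2L2 ranged from -1.52 to 0.36 under WB436B and from -0.35 to 1.19 between the treatments, where BID ranged from -0.016 to 0.041. The counts of members called ranged from 2 to 3 after the siRNA, from 5 to 7 under WB436B and from 4 to 7 between the treatments, lowest without WB436B replicate 1. Over all tested genes these counts ranged from 5715 to 6582, from 7539 to 8276 and from 7400 to 8165. The cause of these changes was not tested beyond the library or setting named.

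For the pathway genes that ranked in the first 4 of a list or were added to these, named or not, 209 of 234 values under the 3 scalings kept direction and call, 13 lost the call, 5 gained it and 7 changed sign, all of values that had not been called. The replicate numbers were not taken as pairs, since the deviations of same-numbered libraries correlated at -0.085 to 0.158 and over 0.1 in 2 of 9 pairs. Between vehicle and siRNA a library correlated best with its own number in 6 of 6 cases (0.042, 0.119 and 0.158), a hint from the data and not the design, and in 2 of 12 cases that involved WB436B. These cases read the same correlations from either group of a pair, so they are not independent of each other. With the replicate block 6312, 8152 and 7959 genes and 2, 5 and 6 members were called. The 3 libraries per group limit all tests, and weak members such as BBC3 depend on the scaling.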
